A study of Mus musculus with 19 samples.

Results

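The genes described here are 35 genes of autophagy, the lysosome and muscle atrophy, taken from a list of gene names. The list holds no measured value, but it was chosen with earlier results of these data known. Of these 35 genes, 31 were measured by at least 1 probe set that the array annotation pairs with a single gene. Map1lc3b, Sqstm1, Optn and Atg4d were not analysed here, because no probe set was paired with them alone. The 31 measured genes stand among 17097 genes in all, each represented by its brightest probe set.

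Kidneys of 4 groups of male mice were compared, 1 Affymetrix HT MG-430 PM array per mouse, and none of these mice had renal ischemia-reperfusion injury. The aged groups, labelled old, held 5 mice fasted for 3 days with access to water only and 5 mice fed ad libitum, all FVB-C57BL/6J F1 hybrids averaging 73 weeks and 47 g. The young groups held 4 mice fasted for 3 days and 5 mice fed ad libitum, all of the C57BL/6J strain, with ages of 10 to 14 weeks and weights of 22 to 25 g. Since aged and young mice also differ in strain and weight, these properties cannot be told apart. RNA came from whole-tissue portions of both kidneys, so fewer cells of a type and less RNA per cell cannot be told apart.

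Autophagy encloses part of the cytoplasm in a double membrane, the autophagosome, and delivers it to the lysosome for breakdown. The ULK kinases start the process when nutrients run low, a lipid kinase complex marks the site of the new membrane, and ubiquitin-like conjugation enzymes attach the ATG8 proteins (LC3 and GABARAP) to it. Cargo receptors bind both the ATG8 proteins and the material to be removed, such as mitochondria. In the proximal tubule, autophagy is known to clear damaged mitochondria and to limit ischemic injury. Much of the pathway is controlled on proteins and not on transcripts, and the arrays measured transcripts alone. The ubiquitin ligases Trim63 (MuRF1) and Fbxo32 (atrogin-1) are best known from skeletal muscle, where both are induced by fasting.

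Levels are given as log2 values after robust multi-array averaging (RMA), and a difference of 1 on this scale is a doubling. Array medians were 3.46 to 3.49 in aged fasted and 3.44 to 3.48 in aged ad libitum fed animals. They were 4.18 to 4.21 in young fasted and 4.15 to 4.19 in young ad libitum fed mice. For this reason the diets are set side by side at each age, and the ages only by the size of the fasting effect. Normalization was probably done for each age separately. Its part in differences between the fasting effects cannot be told apart from that of age, strain or weight. Kidney tubule markers were high in every group, with mean log2 levels of 10.3 to 10.9 over 7 markers. Of the 7, 2 were lower in aged and 3 in young fasted mice, against 4.84% and 12.5% of all genes. Liver transcripts stood apart in single mice, at a mean log2 level of 9.44 over 9 markers in aged fasted mouse 33 (next highest of its group 5.31) and of 7.53 in young fasted mouse 339 (next highest 6.51). Of the 9 liver markers, 4 were higher in young fasted mice (10.7% of all genes), and their part in the results was not tested beyond leaving these mice out. Counts below are therefore also given without both mice. A gene passed where the adjusted p of limma (Benjamini-Hochberg over all 45141 probe sets) was at most 0.05, and adjusted p values below come from that test unless another setting is named.

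In aged kidneys fasting raised Gabarapl1, Bnip3, Atg14 and Atg12 and lowered Ulk2, Atg10 and Trim63. These were 4 of 31 genes higher (12.9%, against 4.32% of all genes) and 3 of 31 lower (9.68%, against 4.84%). In young kidneys it raised Gabarapl1, Bnip3, Ulk1, Rb1cc1, Atg14, Wipi1, Atg12 and Fbxo32 and lowered Ulk2, Atg5, Atg10 and Trim63. These were 8 of 31 higher (25.8%, against 10.7% of all genes) and 4 of 31 lower (12.9%, against 12.5%). All 7 genes that passed in aged mice also passed in young mice, in the same direction, and 19 genes passed in neither age. The shares of all genes that did so were not counted, so this overlap was not compared with that of all genes. Under its own cutoffs, the paper reports that the majority of probe sets changed in aged kidneys were changed in young ones too.

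Most of these differences were small. With a fold change of at least 1.5 required as well, 0 genes were higher (1.39% of all genes) and 1 was lower (1.28%) in aged kidneys, namely Trim63. In young kidneys 1 gene was higher, Bnip3 (2.95% of all genes), and 2 were lower, Ulk2 and Trim63 (3.53%). The median log2 difference of the 31 genes was -0.01 in aged and 0.03 in young mice, against -0.01 in both ages over all genes. Regardless of sign, the median size was 0.08 in aged and 0.13 in young mice, against 0.10 and 0.11 over all genes. Without mice 33 and 339, 3 genes were higher and 2 lower in aged mice, where Gabarapl1 and Ulk2 no longer passed although their log2 differences hardly moved (0.34 against 0.36 and -0.25 against -0.26 with all mice). In young mice 7 were higher and 5 lower without them, since Rb1cc1 no longer passed (0.23 against 0.22 with all mice) and Atg3 did.

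**Figure D1:**
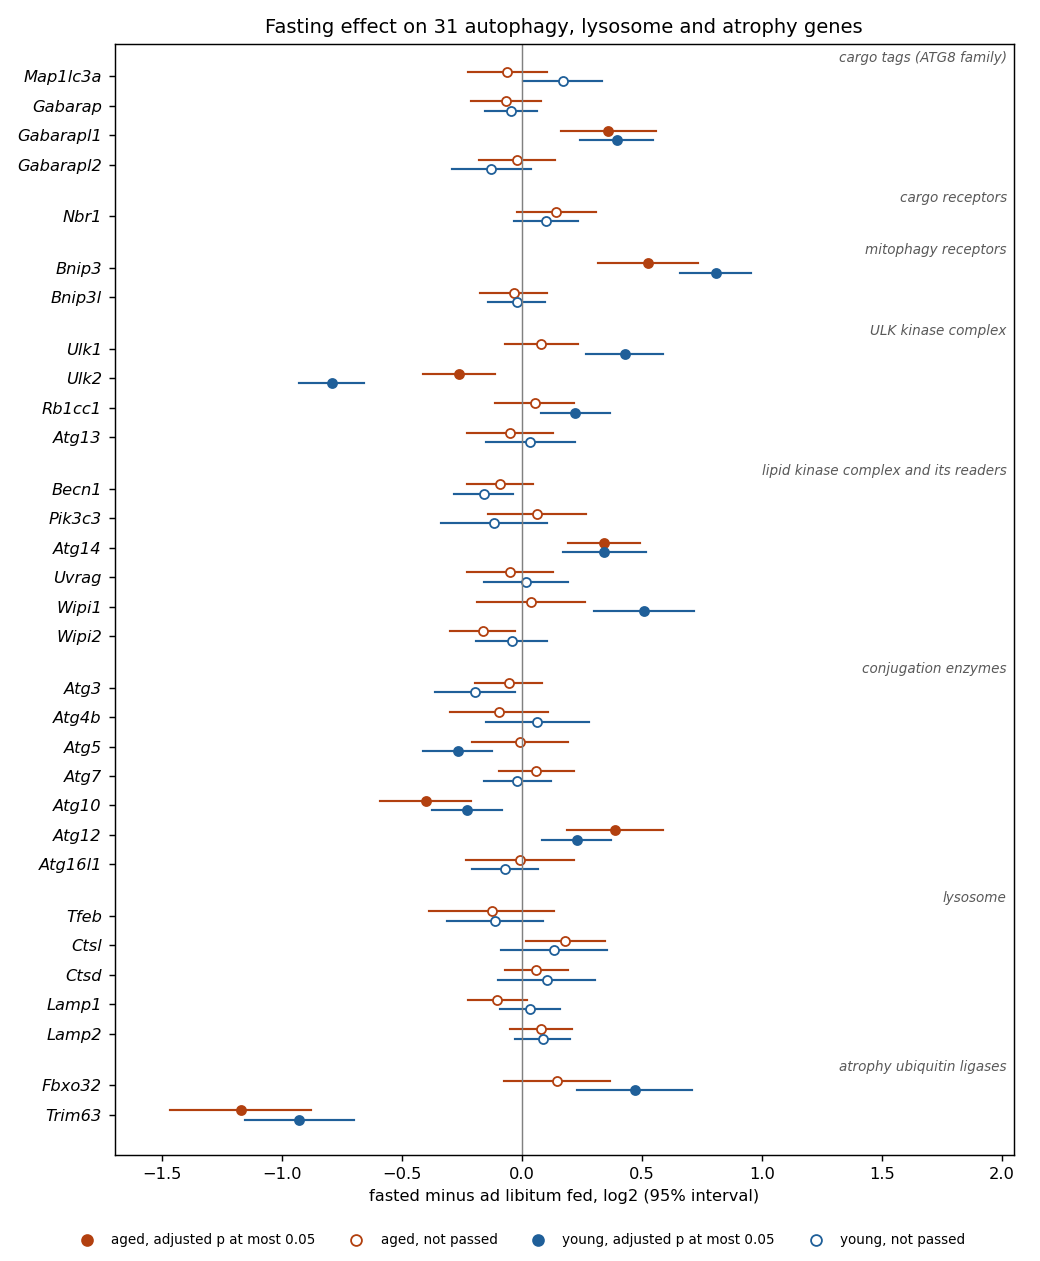
Log2 difference between fasted and ad libitum fed mice for each of the 31 measured genes (horizontal axis, with 95% interval), in aged mice (brown, upper mark of each pair) and young mice (blue, lower mark), ordered by role. Filled marks have an adjusted p of at most 0.05 in limma; Trim63 lies farthest to the left in both ages and Bnip3 farthest to the right.

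The largest difference among the 31 genes was that of Trim63, and it ran downward. In aged mice its log2 levels were 4.33, 4.82, 4.70, 4.78 and 5.21 after fasting, against 5.95, 6.01, 5.92, 5.71 and 6.12 under ad libitum feeding. In young mice they were 6.35, 6.22, 6.18 and 6.21 after fasting, against 7.17, 7.52, 7.02, 7.21 and 6.94 under ad libitum feeding. Every fasted mouse lay below every ad libitum fed mouse of its age. The log2 difference was -1.17 (SE 0.14, adjusted p = 0.000262), a 2.26-fold lower level, in aged mice. It was -0.93 (SE 0.10, adjusted p = 9.74e-05), a 1.90-fold lower level, in young mice. The fasting effects of the 2 ages differed by -0.25 (95% interval -0.63 to 0.14, adjusted p = 0.636).

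Fbxo32, the other muscle ligase, was dimmer and did not follow Trim63. In young mice its log2 levels were 4.90, 4.76, 4.90 and 5.22 after fasting, against 4.28, 4.32, 4.45, 4.71 and 4.61 under ad libitum feeding. All 4 fasted mice were above the ad libitum fed mice, by 0.47 on average (SE 0.11, adjusted p = 0.0112, and 0.0539 without moderated variances). In aged mice the levels were 3.96, 4.05, 4.00, 4.52 and 4.00 after fasting, against 3.99, 3.92, 3.93, 3.91 and 4.06 under ad libitum feeding. The aged groups overlapped, and only mouse 41 stood above the rest (log2 difference 0.14, SE 0.10, adjusted p = 0.514). The fasting effects differed between the ages by -0.32 without passing the test (95% interval -0.65 to 0.00, adjusted p = 0.369). A second Fbxo32 probe set was 0.66 higher in young fasted mice (adjusted p = 0.00131). The third, at a mean log2 level of 3.29, was 0.19 higher there without passing (adjusted p = 0.145).

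The skeletal muscle markers were low on average. The mean log2 level over 10 skeletal muscle markers was 2.89 to 2.95 in aged fasted and 2.90 to 3.00 in aged ad libitum fed mice. It was 3.25 to 3.32 in young fasted and 3.18 to 3.28 in young ad libitum fed mice, each of these means lying below the array's median. None of the 10 markers passed in aged mice, and in young mice Mylpf was higher and Ckm lower, against 10.7% and 12.5% of all genes. Mylpf lay above the array medians in young mice, at 4.80 to 4.92 after fasting and 4.31 to 4.67 under ad libitum feeding, and its part in the results was not tested.

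The promoters of 4 genes that hold a motif searched for are shown. Of these genes 3 changed in both ages (Trim63, Bnip3 and Atg14), and the fourth, Ctsd, holds the lysosomal element. The 4 promoters are from RefSeq, build GRCm38.p6, 250 bases before to 50 bases after the gene's start, written 5′ to 3′ on the gene's own strand. Capitals mark the motifs searched on both strands: CACGTG, the E-box bound by TFEB, a regulator of lysosomal genes; TCACGTGA, the core of the CLEAR element, which contains that E-box; and GTAAACA, the FoxO site. Trim63 lies at chr4:134314870-134315169 on the plus strand. The other 3 are on the minus strand, Bnip3 at chr7:138909457-138909756, Atg14 at chr14:47568385-47568684 and Ctsd at chr7:142387778-142388077.
Trim63: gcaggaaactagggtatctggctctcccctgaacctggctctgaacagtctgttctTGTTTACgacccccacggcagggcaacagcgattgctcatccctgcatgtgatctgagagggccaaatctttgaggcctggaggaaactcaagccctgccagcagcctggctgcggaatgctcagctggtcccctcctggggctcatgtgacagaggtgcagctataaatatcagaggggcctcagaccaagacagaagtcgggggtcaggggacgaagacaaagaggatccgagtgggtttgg
Bnip3: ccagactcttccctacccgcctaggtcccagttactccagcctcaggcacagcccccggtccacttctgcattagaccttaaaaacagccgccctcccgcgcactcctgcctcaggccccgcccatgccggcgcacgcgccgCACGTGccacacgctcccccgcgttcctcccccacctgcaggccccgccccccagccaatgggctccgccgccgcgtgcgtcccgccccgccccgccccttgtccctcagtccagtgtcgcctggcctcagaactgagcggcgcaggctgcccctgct
Atg14: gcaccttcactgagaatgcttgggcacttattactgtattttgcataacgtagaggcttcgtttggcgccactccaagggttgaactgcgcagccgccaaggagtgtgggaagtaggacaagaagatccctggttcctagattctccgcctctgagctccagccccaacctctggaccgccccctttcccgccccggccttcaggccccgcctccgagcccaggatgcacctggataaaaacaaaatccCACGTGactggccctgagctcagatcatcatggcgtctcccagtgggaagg
Ctsd: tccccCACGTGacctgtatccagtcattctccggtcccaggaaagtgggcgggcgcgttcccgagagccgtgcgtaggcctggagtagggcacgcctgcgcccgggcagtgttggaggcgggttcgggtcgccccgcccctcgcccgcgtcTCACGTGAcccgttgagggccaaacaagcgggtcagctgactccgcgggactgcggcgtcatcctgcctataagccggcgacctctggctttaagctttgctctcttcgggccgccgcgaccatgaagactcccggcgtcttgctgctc
Of the 35 genes, 27 had 1 or more promoters in the RefSeq table, 30 promoters in all. CACGTG was found in 8 of the 30 (26.7%), those of Bnip3, Atg14, Atg3, Atg5, Atg7, Ctsl, Ctsd and Lamp1, against 7.15% of all 32851 promoters. TCACGTGA was found in 2 (6.67%), those of Atg3 and Ctsd, against 0.974% of all. GTAAACA was found only in that of Trim63, read on the opposite strand in the line above (3.33%, against 3.65% of all). These are matches of letters and no measure of binding. Of the 8 genes with a CACGTG match, Bnip3 and Atg14 were higher in both ages and Atg5 was lower in young mice, while the other 5 did not pass in either age. Gabarapl1, Ulk2 and Atg10 also changed in both ages, and no motif match was found in their promoters.

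Among the measured genes of the ATG8 family, the tags of the autophagosome membrane, Gabarapl1 alone passed (Map1lc3b was not analysed). In aged mice its log2 levels were 12.16, 11.91, 12.26, 12.22 and 11.84 after fasting, against 11.82, 11.72, 11.62, 11.66 and 11.78 under ad libitum feeding. In young mice they were 12.43, 12.49, 12.42 and 12.37 after fasting, against 12.03, 12.03, 12.12, 11.84 and 12.15 under ad libitum feeding. The diets did not overlap at either age, although the lowest aged fasted mouse was only just above the highest ad libitum fed one. The log2 difference was 0.36 in aged (SE 0.09, adjusted p = 0.0352) and 0.39 in young mice (SE 0.07, adjusted p = 0.00203). In aged mice the call did not hold without fasted mouse 33, 39 or 41 or ad libitum fed mouse 36, 37, 40 or 43 (adjusted p up to 0.0964). A second probe set of Gabarapl1 was also higher, by 0.55 in aged (adjusted p = 0.0243) and 0.44 in young mice (adjusted p = 0.0025).

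The other measured ATG8 genes overlapped between diets in both ages. Gabarap had log2 levels of 10.99, 10.84, 10.89, 10.89 and 10.77 in aged fasted mice, against 10.89, 10.92, 10.93, 11.10 and 10.89 in aged ad libitum fed mice. In young mice Gabarap was at 11.28, 11.32, 11.33 and 11.26 after fasting, against 11.38, 11.32, 11.31, 11.38 and 11.34 under ad libitum feeding. Its differences were -0.07 and -0.05 in aged and young mice, with 95% intervals of -0.22 to 0.08 and -0.16 to 0.06. Gabarapl2, known as GATE-16, was at 9.95, 9.97, 9.87, 9.77 and 9.91 in aged fasted mice, against 10.00, 9.80, 9.98, 9.79 and 10.01 in aged ad libitum fed mice. In young mice it was at 9.81, 9.72, 9.50 and 9.53 after fasting, against 9.81, 9.75, 9.76, 9.67 and 9.84 under ad libitum feeding. Its log2 differences were -0.02 in aged and -0.13 in young mice (adjusted p = 0.919 and 0.286).

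Map1lc3a, which encodes an LC3 protein, had its highest level in a fasted mouse only among the young. Its log2 levels were 9.68, 9.96, 9.72, 9.82 and 9.82 in aged fasted mice, against 9.71, 9.83, 9.86, 9.99 and 9.93 in aged ad libitum fed mice. In young mice they were 10.27, 10.33, 10.21 and 10.31 after fasting, against 10.02, 10.21, 10.21, 10.20 and 9.91 under ad libitum feeding. The differences were -0.06 in aged and 0.17 in young mice (adjusted p = 0.74 and 0.154). This probe set and that of Gabarapl1 are of types that can bind related transcripts, so their values can include other family members.

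Of the measured receptors that load cargo, Bnip3 rose and its relative Bnip3l did not pass. Both proteins sit in the outer mitochondrial membrane and recruit autophagosomes to mitochondria. In aged mice the log2 levels of Bnip3 were 11.40, 11.47, 11.47, 11.39 and 11.20 after fasting, against 11.10, 10.65, 10.79, 11.04 and 10.73 under ad libitum feeding. In young mice they were 11.94, 12.01, 11.93 and 11.90 after fasting, against 11.00, 11.06, 11.18, 11.28 and 11.18 under ad libitum feeding. No fasted mouse overlapped with the ad libitum fed mice of its age. The difference was 0.52 in aged mice (SE 0.10, adjusted p = 0.00596, 1.44-fold) and 0.81 in young mice (SE 0.07, adjusted p = 1.38e-05, 1.75-fold). The difference between the ages, -0.28, did not pass (95% interval -0.53 to -0.03, adjusted p = 0.296). Bnip3l differed by -0.04 in aged (95% interval -0.17 to 0.10) and -0.02 in young mice (-0.14 to 0.10). Nbr1, a receptor for ubiquitin-tagged cargo, differed by 0.14 and 0.10 (adjusted p = 0.359 and 0.324).

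The ULK kinases, which start autophagosome formation, moved apart in young kidneys. The levels of Ulk2 in young mice were 7.81, 7.91, 7.91 and 7.70 after fasting, against 8.66, 8.58, 8.70, 8.62 and 8.59 under ad libitum feeding. The young groups were separated by more than either spanned, with a log2 difference of -0.79 (SE 0.06, adjusted p = 7.96e-06), a 1.73-fold lower level. In aged mice the levels were 7.36, 7.29, 7.37, 7.42 and 7.55 after fasting, against 7.54, 7.76, 7.64, 7.68 and 7.70 under ad libitum feeding. The aged groups touched, since fasted mouse 42 lay just above the lowest ad libitum fed mouse, and the difference was -0.26 (SE 0.07, adjusted p = 0.0397). That aged difference passed only with all mice or without fasted mouse 42 or ad libitum fed mouse 34 (adjusted p up to 0.0969 without another). Ulk2 was the only 1 of the 31 genes whose fasting effect differed between the ages. The aged effect minus the young effect was 0.53 (95% interval 0.34 to 0.72, adjusted p = 0.00369), that is, the fall was smaller in aged mice. Averaged over all Ulk2 probe sets, the difference between the ages was 0.25 and did not pass (adjusted p = 0.0614). On that average the young difference was -0.43 (adjusted p = 6.77e-05) and the aged one -0.18 (adjusted p = 0.0674). This was 1 of 31 genes, against 1.55% of all genes with a higher effect in aged mice. A lower effect passed in 0 of 31, against 0.895% of all genes. At an unadjusted p under 0.05 in limma 4 of 31 had a lower effect, and the share of all genes at that threshold was not counted. Without moderated variances 0 did at an adjusted p of at most 0.05.

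The probe sets that report Ulk2, 4 in number, did not all behave alike. The 3 brightest were lower in young fasted mice, by 0.79, 0.64 and 0.51 on the log2 scale. The fourth, below the lower quartile of the array on 8 of 19 arrays, was 0.23 higher there (adjusted p = 0.0262). In aged mice the 4 differed by -0.26, -0.38, -0.06 and -0.02 (adjusted p = 0.0397, 0.0137, 0.748 and 0.953), brightest first. The aged effect minus the young effect was 0.53, 0.25, 0.45 and -0.25 (adjusted p = 0.00369, 0.309, 0.0148 and 0.355). Ulk1 had log2 levels of 8.31, 8.47, 8.39 and 8.52 in young fasted mice, against 7.87, 8.02, 7.97, 8.18 and 7.95 in young ad libitum fed mice. These groups did not overlap (difference 0.43, SE 0.07, adjusted p = 0.00179). A second, dimmer Ulk1 probe set did not pass in young mice (0.13, adjusted p = 0.361), and averaged over both the young difference was 0.28 (adjusted p = 0.0162). In aged mice the Ulk1 ranges overlapped, at 7.97 to 8.20 after fasting and 7.88 to 8.05 under ad libitum feeding (difference 0.08, adjusted p = 0.618). The difference of -0.35 between these effects did not pass (adjusted p = 0.0773), though it did without young ad libitum fed mouse 349 (-0.39, adjusted p = 0.039).

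**Figure D2:**
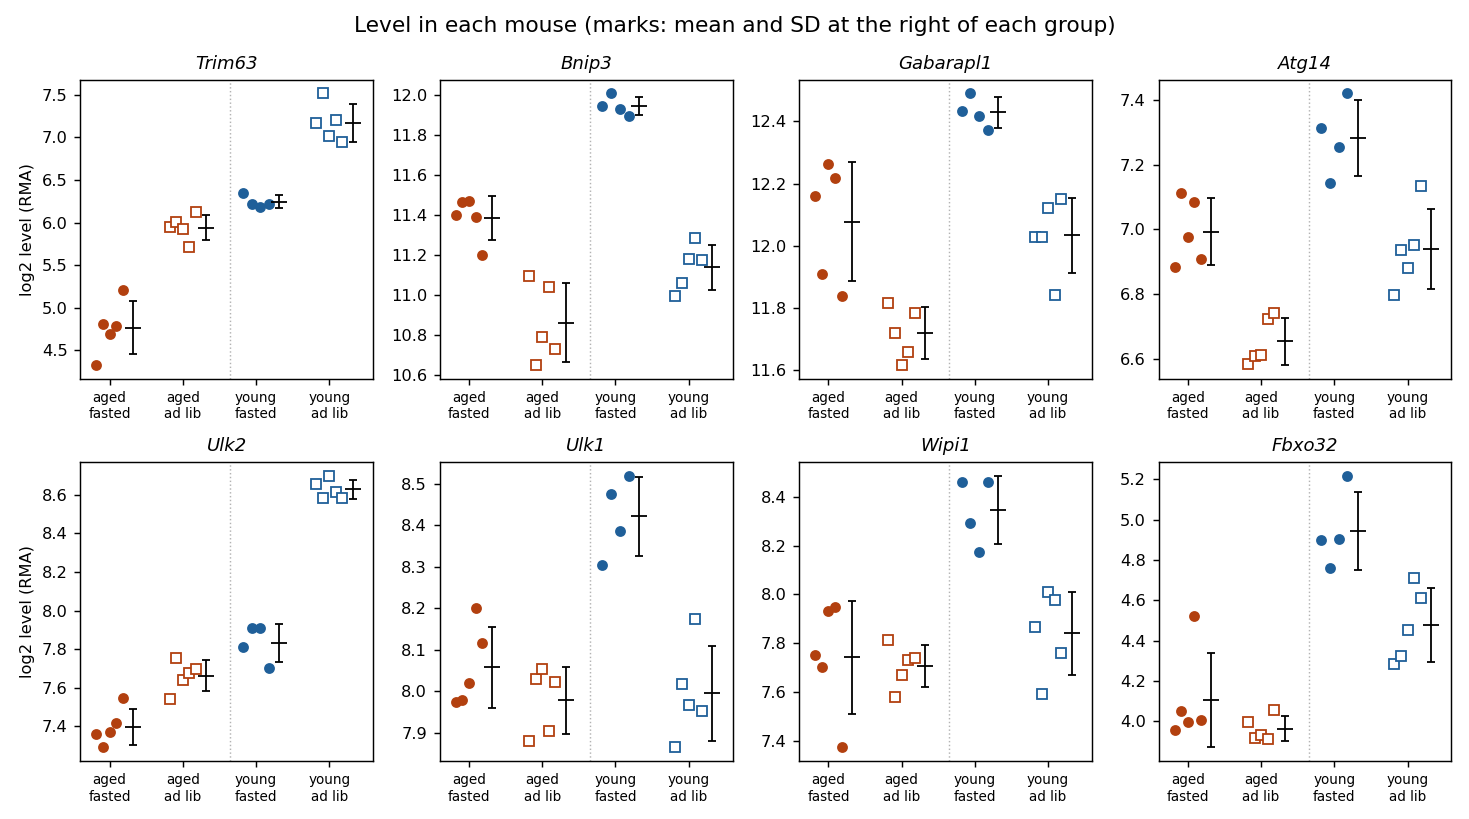
Log2 level of 8 genes in each mouse, in aged fasted, aged ad libitum fed, young fasted and young ad libitum fed mice from left to right, with the mean and SD beside each group (n = 5, 5, 4 and 5). The vertical scales differ between panels and do not start at 0, and levels are comparable within an age only; Trim63 and Ulk2 sit lower and Bnip3 higher in young fasted mice with no overlap.

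The scaffold partners of the ULK kinases were less clear. Rb1cc1, which encodes FIP200, was 0.22 higher in young fasted mice (SE 0.06, adjusted p = 0.0323) at log2 levels of 3.44 to 3.54, against 3.13 to 3.42 in young ad libitum fed mice. Its probe set lay below the lower quartile on 11 of 19 arrays, and the call was lost without any of 6 of the 9 young mice (339, 340, 343, 347, 348 and 349; adjusted p up to 0.0802). Atg13, another subunit, differed by -0.05 in aged and 0.03 in young mice, and its diets overlapped.

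In the lipid kinase complex, the subunit that directs it to autophagy changed and the shared subunits did not pass. Atg14 averaged 6.99 ± 0.10 in aged fasted and 6.65 ± 0.07 in aged ad libitum fed mice (SD, n = 5 each; difference 0.34, adjusted p = 0.0112). In young mice it averaged 7.28 ± 0.12 after fasting and 6.94 ± 0.12 under ad libitum feeding (SD, n = 4 and 5; difference 0.34, adjusted p = 0.0103). The groups did not overlap at either age. Becn1, the Beclin 1 gene, differed by -0.09 in aged and -0.16 in young mice. Its young groups did not overlap, yet the adjusted p was 0.0706. The catalytic subunit gene Pik3c3 differed by 0.06 and -0.12, and Uvrag, the subunit of the endosomal form of the complex, by -0.05 and 0.02 in aged and young mice.

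The WIPI proteins read the lipid that this complex makes. Wipi1 rose in young mice, to 8.35 ± 0.14 after fasting, against 7.84 ± 0.17 under ad libitum feeding (SD, n = 4 and 5; difference 0.51, adjusted p = 0.00312). In aged mice it was 7.74 ± 0.23 after fasting and 7.71 ± 0.09 under ad libitum feeding (SD, n = 5 each; adjusted p = 0.907). The difference of -0.47 between the ages did not pass (95% interval -0.78 to -0.17, adjusted p = 0.108). Of the 5 other Wipi1 probe sets, 1 was 1.09 higher in young fasted mice (adjusted p = 0.0005) and 4 did not pass. Averaged over its probe sets the young difference was 0.30 (adjusted p = 0.0101).

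The Wipi2 probe sets differed among themselves. The brightest, at a mean log2 level of 8.03, differed by -0.17 in aged and -0.04 in young mice (adjusted p = 0.163 and 0.737). The next, at 7.43, was lower by 0.74 in aged (adjusted p = 0.000408) and by 0.67 in young mice (adjusted p = 2.21e-05). The third, at 3.61, was 0.17 and 0.32 higher without passing. Which transcripts each of these detects was not tested.

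**Figure D3:**
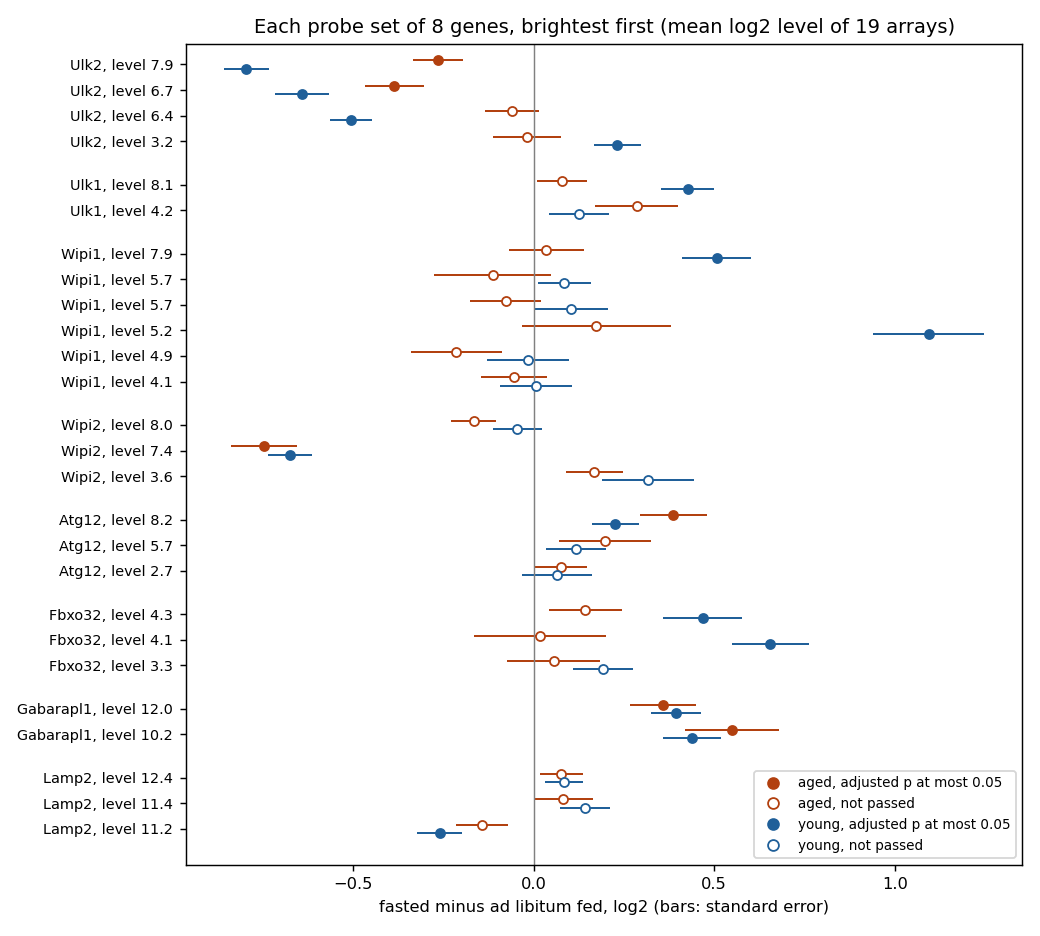
Log2 difference between fasted and ad libitum fed mice (horizontal axis, bars show the standard error) for every single-gene probe set of 8 genes, brightest first, in aged (brown) and young mice (blue). The numbers at the left are mean log2 levels over 19 arrays; both bright Gabarapl1 probe sets lie to the right of 0 in both ages, while the probe sets of Wipi2 and Ulk2 lie on both sides.

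Among the conjugation enzymes, the brightest probe set of Atg12, a ubiquitin-like protein, rose in both ages. Atg10, the enzyme that passes Atg12 to Atg5, fell in both. Atg12 averaged 7.68 ± 0.08 in aged fasted and 7.29 ± 0.19 in aged ad libitum fed mice (SD, n = 5 each; difference 0.39, adjusted p = 0.0254). In young mice it averaged 9.09 ± 0.08 after fasting and 8.86 ± 0.09 under ad libitum feeding (SD, n = 4 and 5; difference 0.23, adjusted p = 0.0315). Atg10 averaged 6.47 ± 0.10 in aged fasted and 6.87 ± 0.17 in aged ad libitum fed mice (SD, n = 5 each; difference -0.40, adjusted p = 0.016). In young mice Atg10 averaged 7.54 ± 0.10 after fasting and 7.77 ± 0.08 under ad libitum feeding (SD, n = 4 and 5; difference -0.23, adjusted p = 0.0298). Neither gene's diets overlapped at either age. The Atg12 call was lost in aged mice without mouse 38, 39 or 41 (adjusted p up to 0.0677) and in young mice without mouse 340, 343, 344, 349 or 350 (up to 0.0807). The aged call was also lost without moderated variances (adjusted p = 0.0652). Averaged over its probe sets, Atg12 differed by 0.22 in aged (adjusted p = 0.0883) and 0.14 in young mice (adjusted p = 0.109), and its second probe set, at a mean log2 level of 5.66, passed at neither age (adjusted p = 0.463 and 0.392). The Atg10 call was lost in young mice without mouse 340, 344, 347 or 349 (adjusted p up to 0.0864).

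Atg5, the acceptor of Atg12, was lower in young fasted mice, by 0.27 on the log2 scale (SE 0.06, adjusted p = 0.0127). In aged mice its difference was -0.01 (95% interval -0.21 to 0.19). The difference of 0.26 between the ages did not pass (95% interval 0.02 to 0.50, adjusted p = 0.323). Of the 2 other Atg5 probe sets, the one at a mean log2 level of 7.79 differed by -0.12 in young and -0.16 in aged mice, and the one at 7.31 by -0.19 in both, none passing (adjusted p = 0.0647 to 0.344). The remaining enzymes passed at neither age at their brightest probe sets. These were Atg7, which activates both ubiquitin-like proteins (0.06 in aged and -0.02 in young mice), Atg3, which transfers ATG8 to lipid (-0.06 and -0.20), the protease Atg4b (-0.10 and 0.06) and Atg16l1, which positions the complex on the membrane (-0.01 and -0.07).

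The lysosomal genes on the list did not pass at their brightest probe sets. Tfeb, the transcription factor for lysosomal genes, differed by -0.13 in aged and -0.12 in young mice (adjusted p = 0.653 and 0.463). Lamp1 and Lamp2, the abundant glycoproteins of the lysosomal membrane, differed by -0.10 and 0.08 in aged and by 0.03 and 0.08 in young mice.

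The 2 cathepsins, proteases of the lysosome, were both at a log2 level of 9.71 or more in every mouse. Ctsl had log2 levels of 11.67, 11.60, 11.65, 11.66 and 11.49 in aged fasted mice, against 11.46, 11.49, 11.50, 11.20 and 11.52 in aged ad libitum fed mice. In young mice Ctsl was at 12.01, 12.11, 12.09 and 12.00 after fasting, against 12.02, 11.92, 12.03, 11.55 and 12.10 under ad libitum feeding. The diets overlapped at both ages, with a difference of 0.18 in aged (95% interval 0.02 to 0.34, adjusted p = 0.217) and 0.13 in young mice (-0.09 to 0.35, adjusted p = 0.445). Ctsd, whose promoter holds the CLEAR core shown above, was at 10.05, 9.91, 9.98, 10.11 and 10.03 in aged fasted mice, against 9.97, 9.93, 9.99, 9.99 and 9.91 in aged ad libitum fed mice. In young mice Ctsd was at 9.81, 10.13, 9.93 and 10.14 after fasting, against 9.71, 9.94, 10.05, 10.01 and 9.80 under ad libitum feeding. Its differences were 0.06 and 0.10, with 95% intervals of -0.07 to 0.19 in aged and -0.10 to 0.30 in young mice.

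For the genes that did not pass, the intervals give the size that could have gone unseen at the brightest probe set. The 24 such genes in aged mice had log2 differences of -0.17 to 0.18, and their 95% intervals reached from -0.39 to 0.36. The 19 such genes in young mice had differences of -0.20 to 0.17, with intervals reaching from -0.36 to 0.35. These intervals do not cover other probe sets: a second Wipi2 probe set differed by -0.74 in aged and -0.67 in young mice. In young mice a further probe set also passed for Atg3 (-0.33, adjusted p = 0.0275, below the lower quartile on 10 of 19 arrays), Lamp2 (-0.26) and Ctsl (0.34).

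The wider machinery was followed in 8 lists of further genes, 150 of 174 of them measured. In aged mice 11 of these were higher (7.33%) and 14 lower (9.33%) after fasting, and in young mice 28 were higher (18.7%) and 30 lower (20.0%). The shares of all genes were 4.32% and 4.84% in aged and 10.7% and 12.5% in young mice. The median log2 difference of the 150 genes was 0.01 in aged and -0.02 in young mice.

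The list of lysosomal hydrolases, the enzymes that digest the cargo, passed more often downward than upward. It also held Npc2 and Psap, which are not enzymes themselves, and Psap was among those higher in young mice. Of 35 measured, 6 were lower (17.1%, against 4.84% of all genes) and 1 higher (2.86%, against 4.32%) in aged mice. In young mice 10 were lower (28.6%, against 12.5%) and 3 higher (8.57%, against 10.7%). Gusb, the beta-glucuronidase gene, was lower by 1.00 on the log2 scale in aged (adjusted p = 3.31e-05) and by 1.19 in young mice (adjusted p = 1.45e-05). Lipa, the lysosomal acid lipase, was lower by 0.31 in aged and 0.67 in young mice (adjusted p = 0.0226 and 6.58e-05). Galns, a sulfatase of glycosaminoglycans, was lower by 0.52 and 0.29, and Hexa, a hexosaminidase subunit, differed by -0.02 in aged and -0.46 in young mice (adjusted p = 0.936 and 0.00115). Without mice 33 and 339, 7 genes of this list were lower and 0 higher in aged mice, and 8 were lower and 2 higher in young mice.

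Macrophages are rich in lysosomes, and their markers moved in the same direction in young mice. The mean log2 level over 10 macrophage markers was 5.74 to 5.92 in young fasted mice, against 6.24 to 6.61 in young ad libitum fed mice, and 6 of the 10 markers were lower (12.5% of all genes). In aged mice the mean was 5.33 to 5.98 after fasting and 5.48 to 6.04 under ad libitum feeding, and 1 of the 10, Csf1r, was lower (4.84% of all genes). The part of these cells in the hydrolase values was not tested.

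In the lysosomal membrane list, 3 of 20 genes were higher (15%, against 4.32% of all genes) and 3 lower (15%, against 4.84%) in aged mice. In young mice 2 were higher (10%, against 10.7%) and 5 lower (25%, against 12.5%). Scarb2, the receptor that carries glucocerebrosidase to the lysosome, was 0.52 and 0.35 higher in aged and young fasted mice (adjusted p = 0.000563 and 0.0043). Slc17a5, the sialic acid exporter, was 0.41 and 0.50 higher (adjusted p = 0.00945 and 0.000101). Slc36a1, an amino acid exporter, was lower by 0.41 and 0.79 (adjusted p = 0.0213 and 6.10e-05). Mcoln1, the calcium channel of the lysosome, was lower by 0.50 and 0.29 (adjusted p = 0.000874 and 0.0114).

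The vacuolar ATPase, the proton pump that acidifies the lysosome, showed 1 of 17 subunits higher and 2 lower in aged mice, and 1 higher and 3 lower in young mice (6 lower without mouse 349). These were 5.88% and 11.8% in aged mice, against 4.32% and 4.84% of all genes. In young mice they were 5.88% and 17.6%, against 10.7% and 12.5%. Atp6v0a4, the subunit form of acid-secreting kidney cells, was 0.43 and 0.68 higher in aged and young fasted mice (adjusted p = 0.0153 and 0.000153). Atp6v0a2 was lower by 0.42 and 0.61 (adjusted p = 0.0082 and 0.000571). Atp6ap1 and Atp6v0b were lower in young mice, by 0.30 and 0.31 (adjusted p = 0.00664 and 0.0113).

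Of the nutrient sensing and transcription genes, 4 of 22 were higher (18.2%, against 4.32% of all genes) and 1 lower (4.55%, against 4.84%) in aged mice. In young mice 7 were higher (31.8%, against 10.7%) and 3 lower (13.6%, against 12.5%). Mtor, the kinase that restrains autophagy when amino acids are plentiful, was lower by 0.66 in aged and 0.56 in young mice (adjusted p = 0.000938 and 0.00121). Rragd, a GTPase that recruits it to the lysosome, was 0.58 and 0.47 higher (adjusted p = 0.0107 and 0.000874). Fnip1, a folliculin partner, was 0.57 higher in aged mice (adjusted p = 0.00148) and differed by 0.10 in young mice (adjusted p = 0.573). Tfec, a relative of Tfeb, was lower by 0.85 in young mice (adjusted p = 2.65e-05) and differed by 0.12 in aged mice, and the effects themselves differed by 0.97 (adjusted p = 0.000569). Without mouse 339 or mouse 344, 4 of these 22 genes were higher in young mice.

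Among 17 other atrophy genes, 0 were higher (4.32% of all genes) and 1 lower (5.88%, against 4.84% of all genes) in aged mice. At an unadjusted p under 0.05 in limma 6 were higher in aged mice, and the share of all genes at that threshold was not counted. Without moderated variances 0 were higher there at an adjusted p of at most 0.05. In young mice 8 were higher (47.1%, against 10.7% of all genes) and 2 lower (11.8%, against 12.5%). Eif4ebp1, the translation repressor 4E-BP1, was 1.09 higher in young mice (adjusted p = 6.91e-06) and 0.34 higher in aged mice without passing (adjusted p = 0.0914). Its fasting effect differed between the ages by -0.76 (adjusted p = 0.00735). Gadd45a, a stress-induced gene, was 0.91 higher in young mice (adjusted p = 0.00095) with a difference of 0.00 in aged mice, and the effects differed by -0.91 (adjusted p = 0.0188). Cdkn1a, the cell cycle inhibitor p21, was 1.24 higher in young mice (adjusted p = 0.000147), with 0.61 in aged mice (adjusted p = 0.188). Mt1, a metallothionein, was 0.70 higher in young mice (adjusted p = 0.000274).

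**Figure D4:**
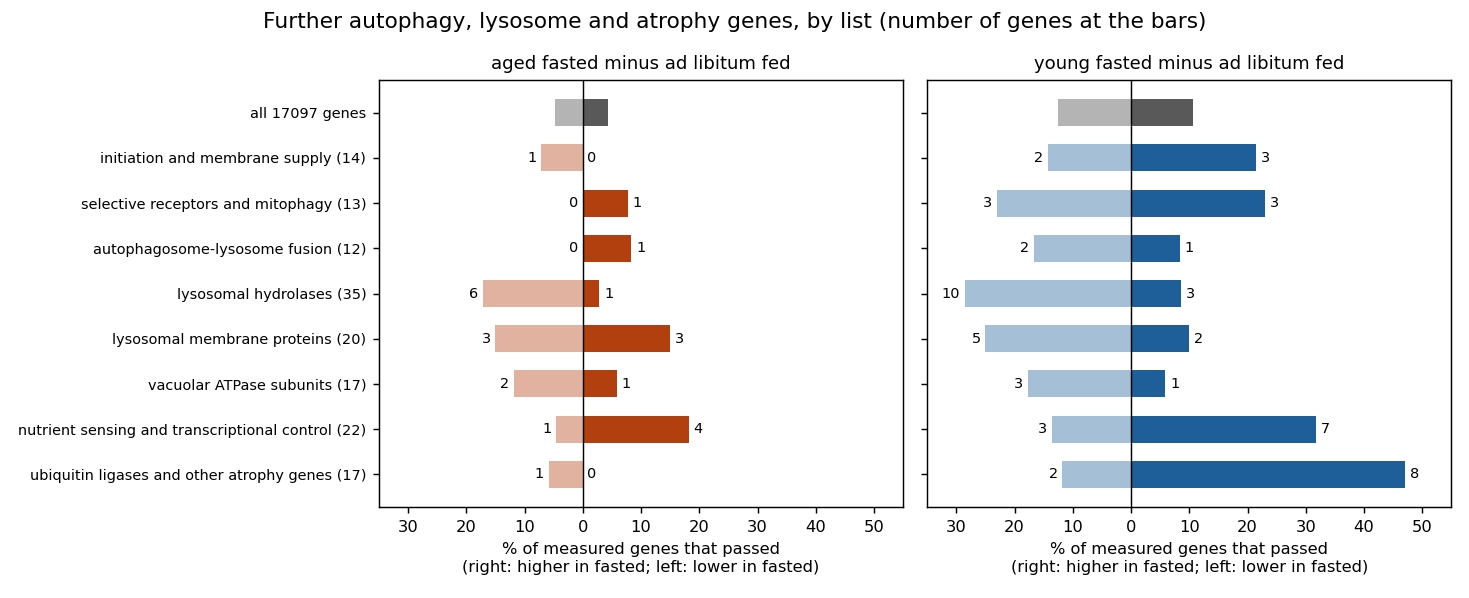
Share of the measured genes of each list that passed (horizontal axis, percent), higher in fasted mice to the right and lower to the left, in aged (left panel) and young mice (right panel), with the number of genes at each bar and all 17097 genes in gray at the top. The atrophy list reaches farthest to the right in young mice (8 of 17 genes) and the hydrolases farthest to the left (10 of 35).

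Smaller lists covered the steps on either side of the autophagosome. Over all genes 4.32% were higher and 4.84% lower in aged mice, and 10.7% and 12.5% in young mice, at the adjusted threshold. Shares of all genes at an unadjusted p under 0.05 in limma were not counted. For initiation and membrane supply, 0 of 14 genes were higher (2 at an unadjusted p under 0.05 in limma) and 1 lower in aged mice, and 3 were higher and 2 lower in young mice. Sh3glb1, a membrane-bending partner of Beclin 1, was 0.97 higher in young mice (adjusted p = 1.32e-05) and differed by 0.38 in aged mice (adjusted p = 0.188). For selective receptors, 1 of 13 was higher and 0 lower (3 at an unadjusted p under 0.05) in aged mice, and 3 were higher and 3 lower in young mice. Retreg1, the receptor for the endoplasmic reticulum, was 0.56 and 0.85 higher in aged and young fasted mice (adjusted p = 0.000423 and 1.75e-06). For fusion with the lysosome, 1 of 12 was higher and 0 lower in aged mice, and 1 was higher and 2 lower in young mice. At an unadjusted p under 0.05 in limma 2 of the 12 were lower in aged mice. Without moderated variances 1 was lower there at an adjusted p of at most 0.05. Stx17, the autophagosomal SNARE, was 0.48 and 0.66 higher (adjusted p = 0.00267 and 8.91e-05). Its partner Snap29 was lower by 0.52 in young mice (adjusted p = 0.00323) and differed by 0.12 in aged mice (adjusted p = 0.625), and the effects differed by 0.65 (adjusted p = 0.0354).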

How the data were processed

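Total RNA from portions of both kidneys of 19 mice was hybridised to 1 array per mouse. The authors corrected the background and normalized the arrays by RMA, for which no version is given in the sources used here. They deposited log2 values of 45141 probe sets in one table; the medians show that normalization was probably done for each age separately. Scanner files, scan batches and detection calls were not used here, and the number of arrays limits the precision. The annotation of the platform pairs 28898 probe sets with 1 gene and 551 with several, and does not list 15692; each of 17097 genes was represented by its brightest single-gene probe set.

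Linear models with moderated variances were fitted in R 4.3.3 with limma 3.58.1, for each age separately, and for the difference between the fasting effects in one fit of 4 group means to all 19 arrays. Adjustment for multiple testing followed Benjamini and Hochberg across the whole table of probe sets, and the code was tested on simulated data. The study housed aged males singly; litters are not given in the labels, and p-values measure the spread between these mice. The 35 genes and the other lists were chosen with earlier results of these data known. Values of every mouse are given for listed genes that passed with a 1.5-fold change or more in either age, for those whose effect differed between the ages, for the ATG8 genes, the 2 cathepsins, Fbxo32 and Trim63; at most 4 genes of each further list, those with the smallest adjusted p, are named. Promoters and their motif matches came from RefSeq. Podocyte, adipocyte and adrenal cortex markers were also measured, and no podocyte or adrenal marker passed at either age. Of 5 adipocyte markers, 1 was higher in young fasted mice (10.7% of all genes). Their mean log2 level was 3.61 to 6.48 in young fasted mice (mouse 339 highest, next 6.28), against 4.14 to 4.76 in young ad libitum fed mice. In aged mice it was 3.03 to 5.89 after fasting and 3.65 to 5.69 under ad libitum feeding. The part of adipocyte transcripts in the results was not tested. Alternatives left out each mouse, both mice high in liver transcripts and the dimmest 40% of probe sets, and changed the scaling, variance model, probe set choice and fold minimum.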

Additional observations from a re-analysis of the deposited data

Results flagged for a closer look

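The fasting effect on Ulk2 differed between the ages, by 0.53 on the log2 scale (adjusted p = 0.00369 in limma), with levels of 7.29 to 7.55 in aged fasted mice, against 7.54 to 7.76 in ad libitum fed aged mice. Its levels were 7.70 to 7.91 in young fasted mice, against 8.58 to 8.70 in young ad libitum fed mice.

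Of 124 combinations of gene and group, 14 had a mouse far from the rest of its group by Dixon's criterion, which chance alone meets in about 1 group in 20. Aged ad libitum fed mouse 40 was the far mouse for 4 genes, with log2 levels of 11.10 for Gabarap (others 10.89 to 10.93), 6.20 for Atg13 (5.78 to 5.87), 5.54 for Tfeb (4.83 to 5.03) and 11.20 for Ctsl (11.46 to 11.52). Aged fasted mouse 42 was far for Atg13 at 5.91 (others 5.81 to 5.84) and for Atg5 at 7.18 (7.28 to 7.31), and aged fasted mouse 41 for Fbxo32 at 4.52 (3.96 to 4.05). Aged ad libitum fed mouse 37 was far for Atg12 at 6.95 (7.33 to 7.42). In young fasted mice, mouse 344 was far for Atg5 at 8.12 (8.31 to 8.33) and mouse 343 for Atg7 at 5.49 (5.58 to 5.59). In young ad libitum fed mice the far values were 6.37 for Atg4b (6.50 to 6.54), 7.46 for Atg16l1 (7.34 to 7.37), 11.95 for Lamp1 (12.07 to 12.10) and 12.54 for Lamp2 (12.64 in the others).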

How the results depend on the processing

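The 20 results of single genes that passed were recomputed under 17 to 26 alternatives each, 374 in all; 311 still passed, 63 no longer did and 0 changed direction. Trim63 in both ages, and Bnip3 and Ulk2 in young mice, passed under each alternative. The lowering of Ulk2 in aged mice was lost under 12 of 19 alternatives, Gabarapl1 in aged mice under 10 of 19, Atg12 under 6 of 19 in aged and 9 of 18 in young mice, Rb1cc1 in young mice under 9 of 17 and Atg10 in young mice under 6 of 18. With 1.5-fold or more also required, the genes higher in aged fasted mice numbered 0 and those lower 1, and in young mice 1 and 2. Without moderated variances 2 genes were higher in aged mice, and leaving out each mouse in turn gave 2 to 4, the 2 without fasted mouse 39 or 41. With the mean of all probe sets of a gene, 0 genes had a higher fasting effect in aged mice, since the Ulk2 difference was then 0.25 (adjusted p = 0.0614 in limma). Leaving out each mouse gave 0 to 1 genes with a lower effect in aged mice, the 1 being Ulk1 without young ad libitum fed mouse 349. Becn1 in young mice passed under 3 alternatives, among them no moderation (adjusted p = 0.041). For the further lists, leaving out mice 33 and 339 and each mouse in turn was chosen after seeing the data. Without mice 33 and 339, counts also changed outside the hydrolase list. In aged mice, selective receptors were 2 higher and 1 lower, nutrient sensing genes 3 higher and atrophy genes 1 higher. In young mice, initiation genes were 1 lower, fusion genes 2 higher and lysosomal membrane genes 4 lower. There, nutrient sensing genes were 4 higher and 2 lower, and atrophy genes 7 higher and 1 lower. Leaving out each mouse moved these counts by over 1.5 times: in aged mice nutrient sensing genes higher (2 to 4), initiation genes, hydrolases and atrophy genes higher (0 to 1 each), initiation genes and selective receptors lower (0 to 1 each), and selective receptors and vacuolar ATPase subunits higher (1 to 2 each). In young mice these were nutrient sensing genes higher (4 to 7), hydrolases higher (1 to 3), vacuolar ATPase subunits lower (3 to 6), fusion genes higher and initiation and atrophy genes lower (1 to 2 each). The paper describes matching mice in pairs by body weight and sex. No paired analysis was possible because the labels do not name the pairs. Another background correction could not be run on the deposited log2 values. Signal over background limits Rb1cc1 and the fourth Ulk2 probe set.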

Other observations

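The dimmest Lamp2 probe set was lower by 0.26 on the log2 scale in young fasted mice (adjusted p = 0.0124 in limma), while the 2 brighter ones differed by 0.08 and 0.14 without passing. A dim Ctsl probe set, at a mean log2 level of 4.52, was 0.34 higher in young fasted mice (adjusted p = 0.0274), against 0.13 for the bright one. A second Ulk1 probe set, at a mean log2 level of 4.25, differed by 0.29 in aged and 0.13 in young mice (adjusted p = 0.189 and 0.361).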
